A study of Mus musculus with 8 samples.

Results

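Expression of 49 DNA replication and repair genes was compared between newly generated and serially passaged mouse leukemia cells. The members were fixed by name as 29 replication genes and 20 repair genes, and 49 of 49 names were found among the 12823 rows of the gene count table. A level of 1 CPM, a unit in which counts are scaled by the library total, was reached in at least 4 libraries by 48 of them, which were tested. The remaining member, Xrcc5, was left out for low counts.

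The cells carried MLL-AF9, a fusion oncogene, together with GFP. It had been introduced by gene transfer into bone marrow progenitors, which produced acute myeloid leukemia (AML) in sublethally irradiated recipients. The 4 new AML libraries came from cells of that newly generated leukemia, and the 4 aggressive AML libraries held descendants of that leukemia, enriched for leukemia stem cell activity by 5 serial transplantations, which per the study's methods used non-irradiated recipients. For RNA, cells of either kind were grown in male C57BL/6 mice, and GFP+ cells were sorted from the bone marrow. The oncogene is thus shared by both groups, the labels describe 1 passaging history for all aggressive AML libraries, and the effect of passage cannot be told apart from that of any batch that follows the group.

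DNA replication starts when the origin recognition complex, Cdc6 and Cdt1 load the ring of Mcm2 to Mcm7 onto DNA, and Cdc45 and the GINS complex then turn this ring into an active helicase. DNA polymerases copy the strands, held by the PCNA clamp that the RFC complex loads, while ribonucleotide reductase and thymidylate synthase supply the nucleotides. Breaks are sensed by the MRN complex and the kinases ATM and ATR, which signal through Chek2 and Chek1, and are repaired by homologous recombination with Brca1 and Brca2 or by end joining with the Ku proteins and DNA-PKcs. Many of these genes are activated by E2F transcription factors when a cell enters S phase, and replication stress is a known feature of proliferating leukemia cells.

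The libraries held between 7805544 and 9697777 counts, and a single count equals 0.103 to 0.128 CPM. All 10 myeloid leukemia markers were in the table and tested. At an edgeR adjusted p under 0.05, 4 of them were higher and 2 lower in aggressive AML (median log2 fold change 0.01). In the table were 0 of 6 T cell, 3 of 5 B cell and 1 of 6 NK cell markers. The 1 tested B cell gene (-0.18) and the 1 tested NK cell gene (-0.37) did not pass that threshold. Of the tested markers of other cells, 8 of 10 neutrophil genes (median log2 fold change -1.46), 4 of 10 erythroid genes (-1.05), and 1 of 3 macrophage genes were lower in aggressive AML at that threshold. Of all tested genes 10.2% were. The summed neutrophil markers ranged from 326 to 494 CPM in new AML and from 166 to 219 CPM in aggressive AML, and the erythroid marker Ank1 had 0 counts in aggressive AML replicates 2 and 3. The 4 Y-linked genes examined summed to 251 to 287 CPM in new AML and had 0 counts in each aggressive AML library. That absence is at odds with an unchanged descent of the aggressive AML cells from the new AML cells, and passage and a different origin of the cells cannot be told apart in any result below. The part of these differences in the results below was not tested. In bulk RNA, fewer cells of a kind and less RNA per cell cannot be told apart.

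No replication gene was called different between the groups, whereas 4 repair genes were lower in aggressive AML. In edgeR's quasi-likelihood test with Benjamini-Hochberg adjustment over 12494 genes, 18.4% of all genes were called at an adjusted p under 0.05, 8.15% higher and 10.2% lower in aggressive AML. Of the 29 replication genes 0 were called, and 3 had an unadjusted p under 0.05, against 32.6% of all genes. DESeq2 and limma on log2(CPM + 1) each called 1 of them, Pola1, and limma voom called 0. Of the 19 tested repair genes 4 were called, each lower (Atm, Prkdc, Chek2 and Brca1), which is 21.1% of them and near the share of all genes, and 7 had an unadjusted p under 0.05. The median log2 fold change, aggressive over new AML, was 0.04 for replication genes, -0.08 for repair genes and 0.00 for all tested genes. The median of its absolute value was 0.08 for replication genes, 0.16 for repair genes and 0.19 for all tested genes. Its median standard error (SE) was 0.088, 0.092 and 0.122 in the same order, so these absolute values were not measured equally well. The groups did not overlap in 1 replication gene and in 6 repair genes, 4 lower and 2 higher, against 21.8% of all genes. The difference between the replication and repair lists was described by these counts and was not tested.

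**Figure D1:**
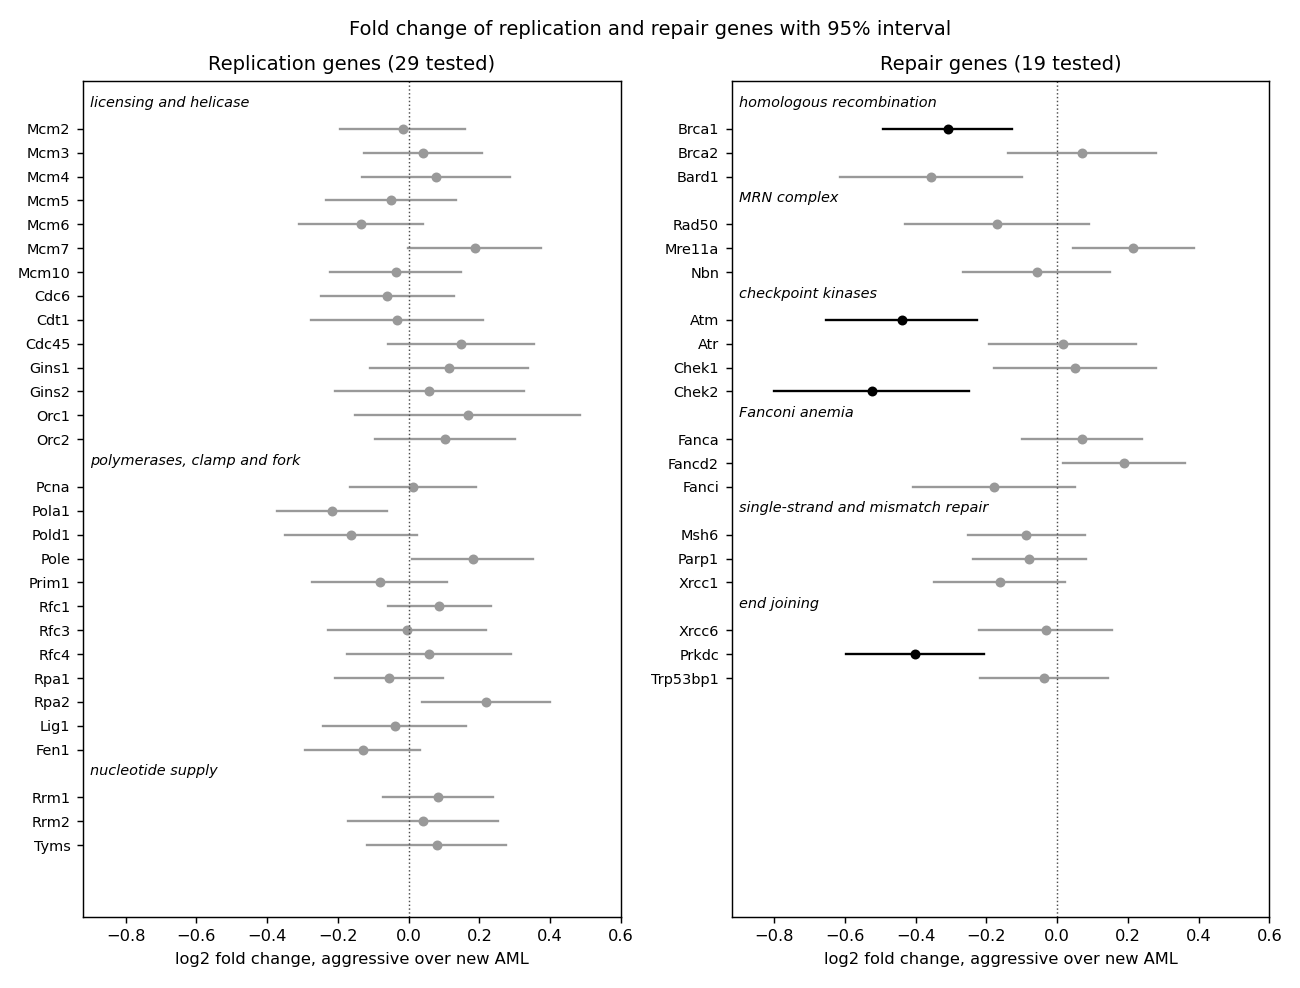
Log2 fold change of each tested member, aggressive over new AML, with its 95% interval (horizontal line), grouped by role, with replication genes at the left and repair genes at the right. The 4 members with an adjusted p under 0.05 (black) are all repair genes and lie between -0.52 and -0.31, and the replication genes (grey) lie between -0.22 and 0.22.

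Promoters are shown for 3 of the lowered repair genes and for 2 helicase genes that were not called, because E2F binding words mark the promoters of many S phase genes. Each window runs from 250 bases before to 50 bases after a RefSeq start site (GRCm38.p6, the build mm10), is printed along the strand of the gene, and carries E2F words in capitals. The words searched on both strands were TTTCCCGC, TTTCGCGC, TTTGCCGC and TTTGGCGC, which can overlap each other. The Atm window (chr9:53536622-53536921, minus strand) and the Brca1 window (chr11:101551906-101552205, minus strand) held 0 such words. The Chek2 window (chr5:110839733-110840032, plus strand) held 1, at position -152 from the start site of that window. The windows of Mcm5 (chr8:75109259-75109558, plus strand) and Mcm6 (chr1:128359656-128359955, minus strand) held 2 and 3, and each had a pair that overlapped on opposite strands, at -153 and -149 in Mcm5 and at -110 and -106 in Mcm6. These genes do not stand for all helicase genes. The windows of Mcm2, Mcm10 and Cdc45, also not called, held 0 such words. The start site of a window can differ from the outermost RefSeq start of the gene. The outermost starts of Atm (53536828), Chek2 (110839800) and Mcm5 (75109468) lie upstream of the start site used, so fewer than 250 bases before them were searched. By the outermost start, the word of Chek2 lies inside the gene.
Atm: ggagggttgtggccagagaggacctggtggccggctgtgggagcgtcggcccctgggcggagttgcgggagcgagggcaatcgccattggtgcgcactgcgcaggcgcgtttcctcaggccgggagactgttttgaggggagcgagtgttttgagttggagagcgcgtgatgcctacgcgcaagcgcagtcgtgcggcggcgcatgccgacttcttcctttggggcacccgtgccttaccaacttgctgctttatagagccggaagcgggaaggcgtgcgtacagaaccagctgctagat
Brca1: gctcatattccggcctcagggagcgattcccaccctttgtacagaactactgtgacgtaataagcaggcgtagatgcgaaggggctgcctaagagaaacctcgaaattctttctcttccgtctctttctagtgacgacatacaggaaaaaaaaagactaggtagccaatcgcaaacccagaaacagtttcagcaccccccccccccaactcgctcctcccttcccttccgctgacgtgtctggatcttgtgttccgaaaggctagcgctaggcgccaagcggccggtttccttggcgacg
Chek2: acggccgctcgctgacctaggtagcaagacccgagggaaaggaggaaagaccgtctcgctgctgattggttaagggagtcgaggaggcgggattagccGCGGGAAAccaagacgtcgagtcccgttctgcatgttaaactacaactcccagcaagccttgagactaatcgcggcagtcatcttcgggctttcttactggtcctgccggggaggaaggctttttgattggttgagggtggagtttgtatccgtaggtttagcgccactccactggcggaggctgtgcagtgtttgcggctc
Mcm5: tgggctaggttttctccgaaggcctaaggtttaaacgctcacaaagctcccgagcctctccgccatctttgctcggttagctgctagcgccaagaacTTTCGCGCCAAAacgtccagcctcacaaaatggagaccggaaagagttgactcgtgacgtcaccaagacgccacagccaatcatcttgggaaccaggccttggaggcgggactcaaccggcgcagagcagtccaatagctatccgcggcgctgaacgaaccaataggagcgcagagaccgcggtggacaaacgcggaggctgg
Mcm6: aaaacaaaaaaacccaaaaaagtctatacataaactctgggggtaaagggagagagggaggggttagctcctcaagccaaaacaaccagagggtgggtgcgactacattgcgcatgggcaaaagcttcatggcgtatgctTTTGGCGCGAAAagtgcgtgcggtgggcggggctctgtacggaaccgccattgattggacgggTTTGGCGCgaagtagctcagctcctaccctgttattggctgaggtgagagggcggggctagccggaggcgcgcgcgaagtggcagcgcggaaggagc

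An E2F word occurred in the windows of 11 of 25 replication genes (44.0%) and 5 of 16 repair genes (31.2%) that had a window, compared with 4.89% of the 9679 tested genes with a window and 2.26% of all 32851 windows. The repair genes with a word were Bard1, Brca2, Chek2, Msh6 and Xrcc6, of which Chek2 was called. The word CCAAT, which the factor NF-Y binds, was found in 18 replication genes (72.0%) and 9 repair genes (56.2%), compared with 43.8% of tested genes and 37.4% of all windows. A matching word is a description of the sequence and not of binding. Mcm4, Gins1, Gins2, Pole, Rad50, Nbn, Fancd2 and Prkdc had no window to search.

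Among the repair genes, the checkpoint kinase genes Atm and Chek2 fell, and their counterparts Atr and Chek1 were not called. Atm encodes the kinase activated by double-strand breaks and lies on chromosome 9 (53437122 to 53536828, minus strand). Its level was 89.3, 106, 92.7 and 104 CPM in new AML replicates 1 to 4 and 63.2, 80.5, 64.4 and 80.1 CPM in aggressive AML replicates 1 to 4. Every aggressive AML library lay below every new AML library, and the mean fell from 97.9 ± 8.08 to 72.0 ± 9.52 CPM (SD, n = 4; log2 fold change -0.44, SE 0.10, edgeR adjusted p = 0.00671). Atr, the kinase activated by single-stranded DNA at stalled forks, measured 69.3, 83.6, 75.9 and 87.0 CPM in new AML and 71.0, 85.3, 74.8 and 88.0 CPM in aggressive AML. The Atr values interleaved, with a log2 fold change of 0.02 (95% interval -0.19 to 0.22, edgeR adjusted p = 0.932).

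Chek2, the effector kinase downstream of ATM, lies on chromosome 5 (110839800 to 110874140, plus strand) and showed the largest decrease of the members. It measured 34.4, 44.5, 35.4 and 44.2 CPM in new AML and 30.4, 29.2, 21.9 and 28.4 CPM in aggressive AML. The groups did not overlap, aggressive AML replicate 3 was the lowest library, and the log2 fold change was -0.52 (SE 0.13, edgeR adjusted p = 0.0109), from 39.6 ± 5.49 to 27.5 ± 3.80 CPM. Chek1, the effector kinase downstream of ATR, measured 48.5, 42.3, 47.2 and 41.6 CPM in new AML and 47.9, 52.9, 39.3 and 45.9 CPM in aggressive AML. These values overlapped, and the log2 fold change was 0.05 (95% interval -0.18 to 0.28).

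In homologous recombination, Brca1 fell and Brca2 was not called. Brca1, which promotes resection of broken ends and lies on chromosome 11 (101488761 to 101551955, minus strand), measured 84.6, 83.1, 89.7 and 87.2 CPM in new AML and 73.0, 71.1, 59.9 and 73.8 CPM in aggressive AML. The groups did not overlap, and aggressive AML replicate 3 was again the lowest. Its mean fell from 86.1 ± 2.90 to 69.5 ± 6.50 CPM (log2 fold change -0.31, SE 0.09, edgeR adjusted p = 0.0203). In edgeR the adjusted p of Brca1 was 0.051 without new AML replicate 4. Brca2, which loads the recombinase onto single-stranded DNA, measured 40.8, 41.6, 45.1 and 43.2 CPM in new AML and 47.2, 39.9, 49.8 and 42.4 CPM in aggressive AML. The 2 sets overlapped, with a log2 fold change of 0.07 (95% interval -0.14 to 0.28). Bard1, the binding partner of Brca1, went from 52.7 ± 5.77 to 41.2 ± 6.62 CPM (log2 fold change -0.36) and stayed just outside the threshold (edgeR adjusted p = 0.0514). Its groups overlapped, since aggressive AML replicate 3 had 50.3 CPM and new AML replicate 4 had 46.5 CPM. Over the alternative settings its adjusted p ranged from 0.00807 to 0.142, and it was called in 7 of 18.

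In end joining, Prkdc fell and Xrcc6 was not called. Prkdc encodes DNA-PKcs, the kinase that Ku recruits to broken ends, and lies on chromosome 16 (15637444 to 15842239, plus strand). It measured 87.0, 93.4, 96.6 and 109 CPM in new AML and 65.3, 80.2, 71.0 and 75.3 CPM in aggressive AML. All aggressive AML values lay below those of new AML, and the mean fell from 96.4 ± 9.07 to 73.0 ± 6.35 CPM (log2 fold change -0.40, SE 0.09, edgeR adjusted p = 0.00689). Xrcc6, which encodes the Ku70 subunit, measured 76.8, 78.2, 89.0 and 77.8 CPM in new AML and 77.0, 89.2, 73.6 and 74.8 CPM in aggressive AML. The Xrcc6 values overlapped (log2 fold change -0.03, 95% interval -0.22 to 0.16). Xrcc5, which encodes the other Ku subunit, Ku80, had 8, 4, 4 and 10 counts in new AML and 12, 9, 3 and 1 counts in aggressive AML. These counts correspond to 0.114 to 1.45 CPM. Whether they reflect a low transcript level or the way the reads were counted was not tested. Trp53bp1, which shields broken ends from resection, was at 73.2 ± 4.6 and 71.3 ± 4.89 CPM (log2 fold change -0.04).

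**Figure D2:**
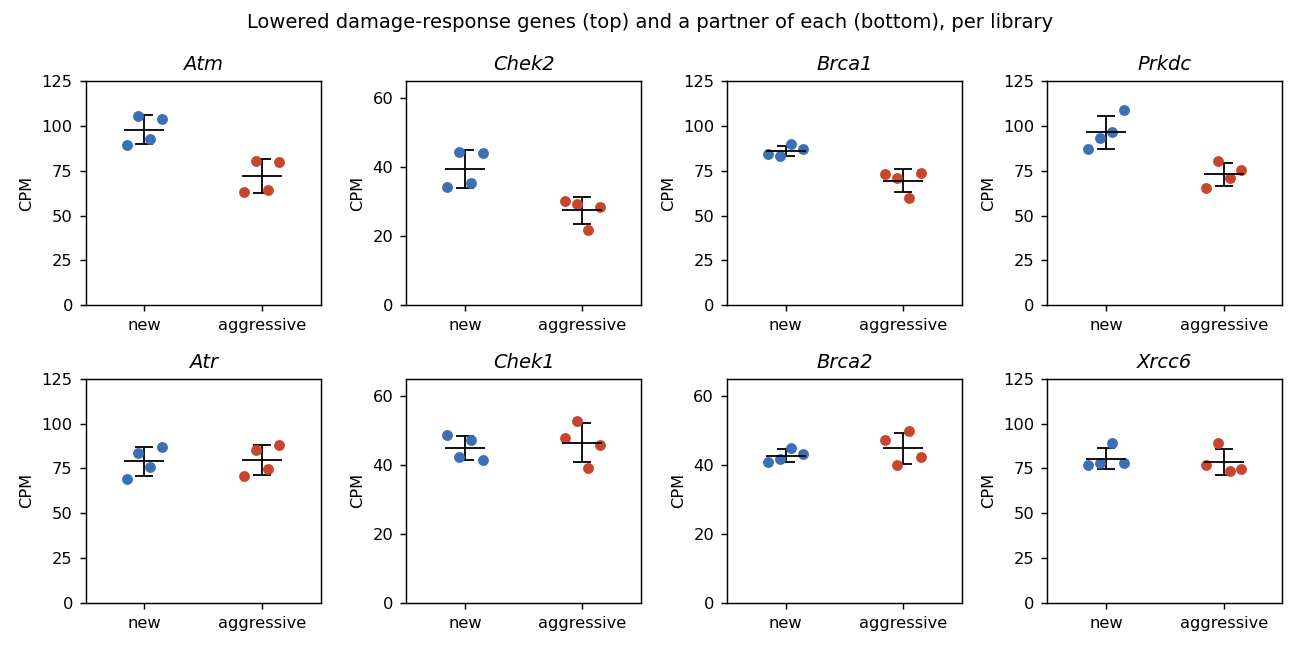
CPM in each library (points) for the 4 called repair genes in the upper row and for a partner of each in the lower row, with the mean (long bar) and SD (error bar, n = 4) of new AML (blue) and aggressive AML (red). In the upper row the groups are separate, for instance 89.3 to 106 against 63.2 to 80.5 CPM for Atm, and in the lower row they overlap. The partners were paired after the values had been seen, so the contrast of the rows is not a test. Bard1, the binding partner of Brca1, is not shown and had a log2 fold change of -0.36 (edgeR adjusted p = 0.0514).

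The other repair genes were not called, and they did not move one way. In the MRN complex, which tethers broken ends, Mre11a had 74.8 ± 5.02 CPM in new AML and 86.8 ± 3.86 CPM in aggressive AML, without overlap (log2 fold change 0.21, edgeR adjusted p = 0.0753). Rad50 was at 111 ± 9.03 and 98.9 ± 19.1 CPM (log2 fold change -0.17), where aggressive AML replicate 3 had 70.4 CPM and the other 3 libraries 108 to 109.7 CPM. Nbn had a log2 fold change of -0.06. In the Fanconi anemia pathway, which removes crosslinks between strands, Fancd2 was at 80.5 ± 6.17 and 91.8 ± 3.08 CPM without overlap (log2 fold change 0.19, edgeR adjusted p = 0.116), and its partner Fanci was at 41.1 ± 3.81 and 36.3 ± 3.32 CPM (-0.18). Fanca, a subunit of the core complex of that pathway, had a log2 fold change of 0.07. The mismatch repair gene Msh6 and the single-strand break repair genes Parp1 and Xrcc1 had log2 fold changes of -0.09, -0.08 and -0.16. The most abundant repair gene by CPM was Parp1, with 392 ± 35.6 CPM in new AML and 371 ± 9.02 CPM in aggressive AML.

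Ratios of partner genes within a library do not depend on how libraries are scaled, and 10 such ratios were computed. The pairs were chosen after the values had been seen, and they are given as a description without a test. Each pair without overlap holds a gene whose own groups did not overlap. The share of all gene pairs without overlap was not computed. The log2 ratio of Atm to Atr counts was 0.26 to 0.37 in new AML and -0.22 to -0.08 in aggressive AML. That of Chek2 to Chek1 was -0.50 to 0.09 against -0.86 to -0.66, and that of Brca1 to Brca2 was 0.99 to 1.05 against 0.27 to 0.83. Each of these 3 ratios was lower in every aggressive AML library than in any new AML library. The mean log2 ratio of Prkdc to Xrcc6 went from 0.26 to -0.11 and that of Rad50 to Mre11a from 0.57 to 0.17, again without overlap. In the opposite direction, Fancd2 to Fanci went from 0.97 to 1.34 and Mre11a to Nbn from 0.90 to 1.17 without overlap. The groups overlapped for Brca1 to Bard1 (0.71 and 0.76), for Rrm1 to Rrm2 (0.80 and 0.84) and for Prkdc to its genomic neighbour Mcm4 (-1.50 and -1.98).

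**Figure D3:**
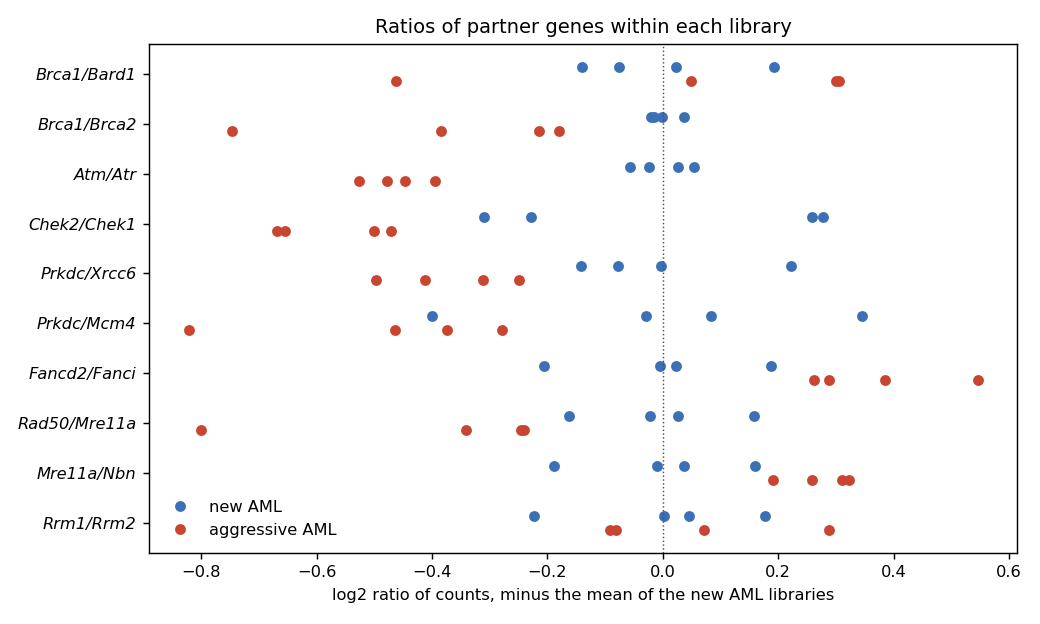
Log2 ratio of the counts of partner genes in each library of new AML (blue) and aggressive AML (red), minus the new AML mean of that pair. The groups are separate in 7 of the 10 pairs, which were chosen after the values had been seen. Each of these 7 holds a gene whose own groups were separate in CPM, as in 21.8% of all tested genes. The share of all gene pairs with separate groups was not computed. The separate pairs include Atm, Chek2, Brca1 and Prkdc, which were called on their own. The groups of Brca1 to Bard1, Prkdc to Mcm4 and Rrm1 to Rrm2 overlap.

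Group means of the replication genes ranged from 18.6 to 631 CPM and those of the tested repair genes from 27.5 to 392 CPM. The values of the 2 groups overlapped in 28 of 29 replication genes. Per kilobase of transcript, the ring genes differed among themselves, from 76.2 ± 10.5 CPM for Mcm4 to 217 ± 18.4 CPM for Mcm6 in new AML. The other ring genes had 128 ± 14.6 (Mcm2), 142 ± 8.98 (Mcm7), 149.8 ± 14.3 (Mcm3) and 150.1 ± 15.4 CPM per kilobase (Mcm5) in new AML. Mcm2 was the lowest of the 4 genes in each of the 4 new AML libraries. In aggressive AML Mcm4 was again the lowest, at 80.4 ± 8.04, and Mcm6 the highest, at 198 ± 18.1 CPM per kilobase. The PCNA clamp gene had 201 ± 22 and 202 ± 12.7 CPM per kilobase.

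Within the ring, Mcm2 measured 493, 398, 448 and 386 CPM in new AML and 455, 424, 426 and 402 CPM in aggressive AML. Mcm3 measured 496, 434, 483 and 403 against 492, 450.2, 484 and 444 CPM. The values of both genes overlapped between groups, with log2 fold changes of -0.02 (95% interval -0.19 to 0.16) and 0.04 (-0.13 to 0.21). Mcm4 measured 324, 249, 278 and 242 against 326, 294, 277 and 258 CPM, and Mcm5 measured 545, 469, 559 and 457 against 539.7, 487, 500.1 and 435 CPM. Their values overlapped as well, with log2 fold changes of 0.08 (-0.13 to 0.29) and -0.05 (-0.23 to 0.13). Mcm6 measured 711, 608, 612 and 595 against 587, 521, 643 and 550.2 CPM, and Mcm7 measured 449, 396, 438 and 401 against 538, 434, 525 and 422 CPM. For Mcm6, 3 of the 4 aggressive AML libraries lay below every new AML library, for Mcm7 the 95% interval reached from -0.00 to 0.38, and neither was called (edgeR adjusted p = 0.279 and 0.155). The libraries of a group differed in a shared manner: replicate 1 was the highest of its group in 5 of the 6 ring genes and replicate 4 the lowest in 5 of 6, in new AML and in aggressive AML alike.

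**Figure D4:**
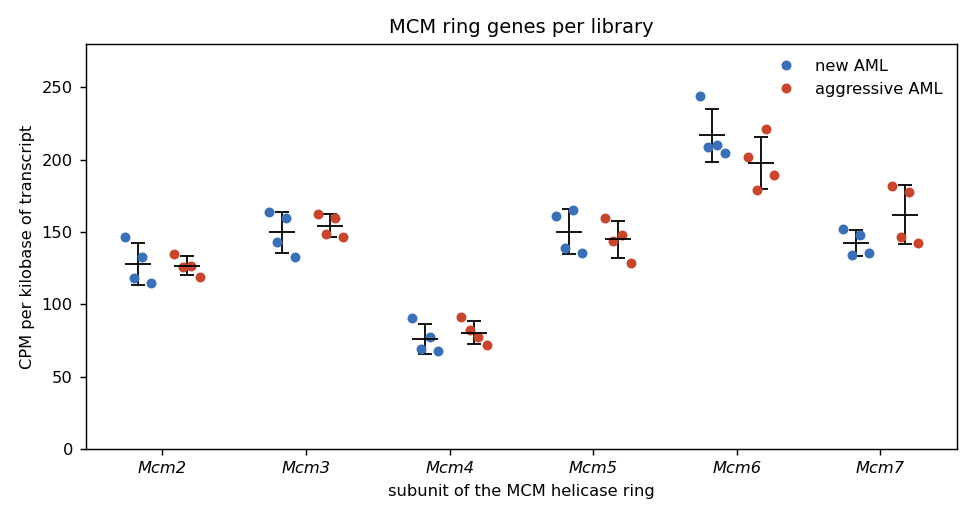
CPM per kilobase of transcript for the 6 genes of the helicase ring in each library of new AML (blue) and aggressive AML (red), with mean and SD (n = 4). Mcm4 is the lowest and Mcm6 the highest ring gene in both groups, and the groups overlap for every gene.

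Of the genes that load and activate the ring, Cdc45 had 145 ± 12.2 CPM in new AML and 160.5 ± 21.1 CPM in aggressive AML. The log2 fold changes were 0.15 for Cdc45, 0.17 for the origin recognition gene Orc1 and 0.10 for Orc2, and those of the GINS genes Gins1 and Gins2 were 0.11 and 0.06. They were -0.06 for the loading factor Cdc6, -0.03 for Cdt1 and -0.04 for Mcm10. The lowest level of a replication gene was that of Orc1, at 18.6 ± 3.44 and 20.9 ± 2.86 CPM, and its interval was the widest (-0.15 to 0.48). The exons of Gins2 and Orc2 shared 67.3% and 29.8% of their bases with genes on the opposite strand (Gse1 and Nif3l1), so that their counts are uncertain.

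At the fork, Pcna measured 294, 273, 351 and 301 CPM in new AML and 328, 296, 318 and 286 CPM in aggressive AML. The values interleaved, and the log2 fold change was 0.01 (95% interval -0.17 to 0.19). Pcna also has 2 named pseudogenes with which reads may be shared. Pola1, the catalytic subunit of the polymerase that starts each strand, was the replication gene nearest to a call. It lay at 118, 114, 123 and 129 CPM in new AML and at 106, 102, 102 and 106 CPM in aggressive AML. The groups did not overlap, but the log2 fold change of -0.22 (SE 0.07) had an edgeR adjusted p of 0.0505, just past the threshold. The adjusted p of Pola1 ranged from 0.0332 to 0.137 over the alternatives.

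Pole, the leading-strand polymerase, had 117 ± 8.88 and 133 ± 7.76 CPM (log2 fold change 0.18, edgeR adjusted p = 0.130), while Pold1, the lagging-strand polymerase, had 214 ± 24.7 and 191 ± 14.1 CPM (-0.16, edgeR adjusted p = 0.214). Prim1, a primase subunit, had a log2 fold change of -0.08. The clamp loader genes Rfc1, Rfc3 and Rfc4 lay at 0.09, -0.00 and 0.06. Of the genes of the single-strand binding protein RPA, Rpa2 was at 99.2 ± 7.43 and 116 ± 9.63 CPM (log2 fold change 0.22, edgeR adjusted p = 0.0882) and Rpa1 had a log2 fold change of -0.06. Lig1 and Fen1, which join and trim lagging-strand fragments, had values of -0.04 and -0.13, and 78.8% of the exon bases of Fen1 lie opposite the antisense gene Gm10143.

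Of the nucleotide supply genes, Rrm2, the regulated subunit of ribonucleotide reductase, measured 269, 229, 264 and 210.4 CPM in new AML and 256, 265, 272 and 207 CPM in aggressive AML. The Rrm2 values overlapped (log2 fold change 0.04, 95% interval -0.17 to 0.25). Its partner Rrm1 and the thymidylate synthase gene Tyms both had a log2 fold change of 0.08. Over the 29 replication genes, the bounds of the 95% intervals reached from -0.37 to 0.48, so that a change of 1 on the log2 scale lies outside the interval of every one of them.

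As a list, the mean log2(CPM + 1) of the replication genes per library ranged from 7.16 to 7.35 in new AML and from 7.18 to 7.36 in aggressive AML. That of the repair genes ranged from 6.25 to 6.29 in new AML and from 6.07 to 6.19 in aggressive AML, and thus did not overlap. The repair mean includes the 4 called genes, each lower in aggressive AML, and was not computed without them. The difference of the 2 means went from 0.99 ± 0.09 to 1.13 ± 0.11 (SD, n = 4), and here the groups overlapped. Aggressive AML replicate 3 was the lowest library of its group in 9 of the 19 repair genes. A list of 20 mitosis genes gave 7.13 ± 0.07 and 7.14 ± 0.10, with a median log2 fold change of 0.02. In that list Cenpa, the centromeric histone, rose from 135 ± 4.93 to 169.6 ± 12.3 CPM (edgeR adjusted p = 0.00719), and the proliferation marker gene Mki67 fell from 851 ± 46.1 to 697 ± 77.7 CPM (edgeR adjusted p = 0.0247). The call of Mki67 was lost without new AML replicate 2 or 4 or aggressive AML replicate 2 or 3 and with the trend of fold change with gene length removed (adjusted p of up to 0.0788 in edgeR), and that of Cenpa was kept in 18 of 18 alternatives.

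Further genes of both pathways were examined as 2 wider lists. Of 49 other replication genes 5 were called higher and 1 lower, with a median log2 fold change of -0.00. That is 12.2% of the list, below the 18.4% of all tested genes. The primase subunit gene Prim2 rose from 80.6 ± 9.08 to 107 ± 12.1 CPM (log2 fold change 0.42, edgeR adjusted p = 0.00962). The thymidine kinase gene Tk1 (0.32) rose too, and Prim2 and Tk1 were called in 18 of 18 alternative analyses, which changed the scaling, the filter, the test or the libraries used. The histone chaperone gene Chaf1b (0.36) and the polymerase epsilon subunit gene Pole3 (0.34) rose as well and were called in 9 and 12 of them. Mcmbp, which binds MCM proteins, was the only gene called lower (-0.23), and its call was lost in 13 of 18 alternatives, among them 2 other scalings and the replicate block, with edgeR adjusted p-values of up to 0.139. Of 86 tested other repair genes 6 were called higher and 5 lower, with a median of -0.01. That is 12.8%, again below the share of all genes. Rev1 and Rad18, both of which act in translesion synthesis, rose with log2 fold changes of 0.76 and 0.45. Rev1 went from 42.6 ± 6.16 to 72.1 ± 3.02 CPM (edgeR adjusted p = 0.000131). The helicase gene Blm (0.51) and the alkylation repair gene Alkbh3 (0.51) also rose. The largest decreases were those of Dclre1c (-0.69), which encodes the end joining nuclease Artemis, the Fanconi gene Fancc (-0.59), Brip1 (-0.50), which encodes a helicase that binds Brca1, and Mdc1 (-0.47), an adaptor downstream of ATM. Dclre1c fell from 43.2 ± 4.85 to 26.6 ± 6.31 CPM (edgeR adjusted p = 0.00435). Mdc1 fell from 154 ± 14.4 to 111 ± 11.3 CPM (edgeR adjusted p = 0.0024).

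Fold changes of all genes varied with transcript length, which was known for 95.1% of tested genes. The median log2 fold change was 0.10 for transcripts of up to 1500 bases and -0.05 for those over 8000 bases, and the share called lower was 4.27% and 16.5%. Prkdc, Atm and Brca1 have transcripts of 12647, 9787 and 6572 bases, whereas that of Chek2 has 2276. Long repair genes that were not called included Brca2 (10724 bases, log2 fold change 0.07) and Atr (8102 bases, 0.02). After the trend with length had been removed from each library, limma gave log2 fold changes that left Atm, Prkdc and Chek2 called and put the adjusted p of Brca1 at 0.051, and the median of the repair genes was -0.03. Median lengths were 3031 bases for replication genes and 4645 bases for repair genes.

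**Figure D5:**
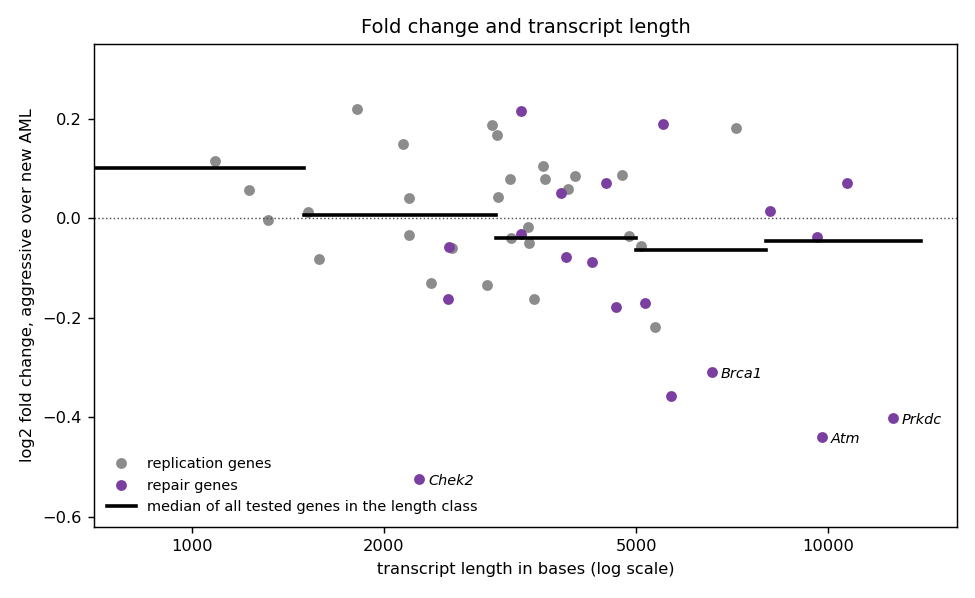
Log2 fold change, aggressive over new AML, against transcript length in bases (log axis) for replication genes (grey) and repair genes (purple). Black bars are medians of all tested genes in each length class, from 0.10 for the shortest to -0.05 for the longest, and the 4 labelled genes lie below them.

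Several members start close to a gene on the opposite strand. The annotated starts of Prkdc and Mcm4 lie 466 bases apart in GENCODE and 44 bases apart in RefSeq, and Prkdc fell (log2 fold change -0.40) while Mcm4 had a value of 0.08. By GENCODE, Atm starts 307 bases from Npat, a regulator of histone genes, which had a log2 fold change of 0.13 (edgeR adjusted p = 0.52). Brca1 starts 194 bases from Nbr1 (-0.24, edgeR adjusted p = 0.117), and Chek2 starts 202 bases from Hscb (-0.13, edgeR adjusted p = 0.458). Among 13 members with a tested protein-coding neighbour of this kind, there were 0 pairs in which both genes were called. Mcm4 and Prkdc are counted there as neighbours of each other. Of the neighbours 1 was called, Prkdc as that of Mcm4, and 18.4% of all tested genes were called. So few pairs cannot show whether genes with close starts change together. Neighbours of members that were not called included Abhd12 of Gins1 (0.14), Ufd1 of Cdc45 (0.19), Prpf38a of Orc1 (0.18), Pxmp2 of Pole (0.19), Smyd4 of Rpa1 (0.01), Tmem258 of Fen1 (0.14), Ankrd49 of Mre11a (0.14) and Emc3 of Fancd2 (-0.03). By the outermost RefSeq starts, Gins1 and Orc1 lie farther from these neighbours, at 4777 and 3631 bases. By GENCODE, Ufd1, Tmem258 and Ankrd49 start inside the member, so that these pairs overlap at their starts.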

How the data were processed

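RNA-seq of GFP+ MLL-AF9 cells was analysed in 4 new AML and 4 aggressive AML libraries, grouped by their labels, which call them biological replicates. The study gives n = 4 male mice per group for these data. The authors sequenced both ends of poly(A) RNA, aligned the reads to mm10 with HISAT2, used Rsubread to count reads in genes and removed those under 1 CPM. Annotation and strand setting are not given in the sources used here. The deposited values are raw read counts (whole numbers with differing totals), although the file is named for CPM.

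Rows that reached 1 CPM in at least 4 libraries were tested with edgeR 4.0.16 (R 4.3.3, TMM scaling, quasi-likelihood test, group as the only term, two-sided, Benjamini-Hochberg adjustment over 12494 genes, threshold 0.05). The authors used limma on log2 CPM, which is an alternative here (limma 3.58.1), as is DESeq2 1.42.0. CPM values carry the TMM factors. Replicates varied with a common biological coefficient of 0.118, and intervals have a level of 95%.

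Of 12822 gene names, 12029 matched RefSeq directly and 455 through an older symbol. Promoter windows are those of RefSeq, and lengths and gene starts those of GENCODE. The members, gene lists, gene pairs and tests were chosen with earlier results of these data known. Values in every library are given for called members and for Mcm2 to Mcm7, Pcna, Rrm2, Brca1, Brca2, Atm and Prkdc, and of the wider lists the called genes with the 4 largest absolute log2 fold changes in each direction are named. Other members given per library (Atr, Chek1, Xrcc5, Xrcc6 and Pola1) were chosen after their values were seen. Divergent neighbours are genes on the opposite strand that by GENCODE start within 1000 bases upstream of the member, or a shorter distance inside it.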

Additional observations from a re-analysis of the deposited data

Results flagged for a closer look

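Among 96 groups of 4 libraries (48 members in 2 groups), 6 held a library that stood apart from the other 3 by Dixon's criterion, which chance alone exceeds in about 1 group in 20. In new AML replicate 1, Mcm6 had 711 CPM against 595 to 612 in the others, and Pold1 had 250.3 CPM against 198 to 206. In aggressive AML replicate 4, Pole had 121 CPM against 135 to 138, and in aggressive AML replicate 3, Rad50 had 70.4 CPM against 108 to 109.7. Fanci had 35.4 CPM in new AML replicate 2 against 42.7 to 43.6, and Xrcc6 had 89.0 CPM in new AML replicate 3 against 76.8 to 78.2. None of these 6 genes was called in the comparison of the groups.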

How the results depend on the processing

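Atm, Prkdc and Chek2 were called lower in each of 18 alternatives, which covered scaling, filters, other tests, a replicate block and leaving out each library. Their highest adjusted p-values were 0.0305, 0.0299 and 0.0452. Brca1 was called in 16, and its adjusted p was 0.051 both without new AML replicate 4 and with the length trend removed, an alternative chosen after seeing the data. The number of called repair genes stayed within 1.5 times of 4. With the length trend removed, the median of the repair genes moved to -0.033. The number of called replication genes was 1 (Pola1) with library totals only, with DESeq2 and with limma on log2(CPM + 1). The number of other replication genes called was 12 with DESeq2 and 2 to 7 when single libraries were left out. It was 2 without new AML replicate 2, aggressive AML replicate 1 or aggressive AML replicate 3, and 3 without new AML replicate 4 or aggressive AML replicate 2. The cause of these shifts was not tested. Over all genes, between 1466 (without new AML replicate 2) and 2538 (DESeq2) were called.

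The labels number the replicates, but over all genes the deviations of same-numbered libraries correlated at 0.10, -0.04, -0.07 and 0.20, so the numbers were not taken as pairs in the main test. The replication genes followed the numbers in part. Their list mean was 7.34, 7.17, 7.35 and 7.16 in new AML replicates 1 to 4 and 7.36, 7.25, 7.32 and 7.18 in aggressive AML. The replication minus repair difference of list means was higher in aggressive AML in 4 of 4 same-numbered libraries, a description that rests on these numbers. With a replicate block 2367 genes were called, and Bard1 was called (adjusted p = 0.0209).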
